A study of Mus musculus with 48 samples.

Results

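Ribosome biogenesis genes encode the factors that build ribosomes in the nucleolus, and 40 of them were followed through the day in epidermal stem cells (EpSCs) of young and aged mice. A gene was represented by the probe set that carried its symbol alone and had the highest mean over all 48 arrays. Of the 40 genes, 37 had such a probe set, and Mybbp1a, Utp14a and Gnl3 had none. All 37 lay above the limit for dim genes (a mean log2 value of 3.96) and were tested among 12823 genes. The probe sets of 1 symbol cover 17097 genes in all. Wdr75 lay close to that limit, with a mean of 4.04.

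The cells came from the epidermis of wild-type female C57B6/J mice, and no transgene or treatment is given in the labels. The young mice had reached 8 weeks and the aged mice 102 to 116 weeks. Collections of both ages ran every 4 h from ZT0 to ZT20, where ZT (Zeitgeber time) counts the hours from lights on by convention. There were 4 separate mice and 4 arrays in each of the 12 groups, 24 for each age. Values are log2 signals after RMA, a method that corrects background, aligns the arrays and summarises the probes of a probe set. A difference of levels is therefore relative to the other genes on the array.

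All 8 markers of basal keratinocytes lay above the dim limit (Krt5, Krt14, Krt15, Trp63, Itga6, Itgb4, Col17a1 and Itgb1), as did 6 of 7 suprabasal markers (not Flg). Of the bulge markers 5 of 7 did, and Cd34 and Lgr5 were below it. Markers above the limit numbered 3 of 6 for fibroblasts, 1 of 5 for endothelium, 2 of 6 for myeloid cells, 2 of 6 for melanocytes and 4 of the 4 T cell markers found. Col3a1, Pdgfra, Ptprc, Lyz2, Cd207, Dct and Kit were among those below it. Above it were Col1a1, Col1a2 and Dcn (means of 4.45, 4.21 and 4.40), Pecam1 (4.31), Cd74 (5.61), Itgax (4.35), Pmel (6.01) and Mitf (7.78). Of the T cell markers, Cd3e (4.21), Cd2 (4.35) and Cd3g (4.36) lay close to the limit, and Thy1 had a mean of 9.42. Array medians ranged from 4.78 to 5.04 and correlations between arrays from 0.963 to 0.997, so no array was a copy of another. Array weights, limma's estimate of how far an array lies from its group, were lowest for aged ZT12 replicate 1 (0.247), young ZT0 replicate 2 (0.293), young ZT4 replicate 1 (0.326) and young ZT0 replicate 3 (0.457). The number of mice limits the precision of the values.

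Ribosome synthesis begins when RNA polymerase I copies the ribosomal DNA into a long precursor RNA. Small nucleolar ribonucleoproteins (snoRNPs) modify that precursor, the small subunit processome folds and cuts it, and further factors assemble the large subunit. The transcription factor Myc is known as an activator of many of these genes, and in the epidermis ribosome production is linked to the growth of basal cells and their progeny.

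The promoters of 29 of the 37 genes were in the RefSeq table (build GRCm38.p6), and 4 motifs were searched on both strands in the 250 bases before the start the table uses. CACGTG, an E-box that Myc with Max and clock proteins can bind, was present in 2 of 29 promoters (6.9%), against 8.3% of 10302 genes tested on the arrays and 6.05% of 27025 promoters in the table. CCGGAAG, a core of ETS-family motifs, was present in 7 (24.1%), against 12.5% and 7.05%. TATAAA, the TATA box, was in 2 (6.9%; 7.17% and 13%) and TGACGTCA, the cAMP response element, in 1 (3.45%; 2.62% and 1.62%). The E-box share was close to that of the genes tested, and the CCGGAAG share was above it. No test was made of these shares.

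The 120 bases before the start are shown for the 3 genes rhythmic in young cells (Wdr43, Utp15 and Rrp9), for Nolc1, which was higher in aged cells, and for Nop2 and Utp18, which held the 2 E-boxes. They are read 5′ to 3′ on the gene's strand, and capitals mark any of the 4 motifs. The windows are chr17:71616095-71616214 (+) for Wdr43, chr13:98262993-98263112 (-) for Utp15, chr9:106477189-106477308 (+) for Rrp9, chr19:46075727-46075846 (+) for Nolc1, chr6:125131763-125131882 (+) for Nop2 and chr11:93885767-93885886 (-) for Utp18.
Wdr43: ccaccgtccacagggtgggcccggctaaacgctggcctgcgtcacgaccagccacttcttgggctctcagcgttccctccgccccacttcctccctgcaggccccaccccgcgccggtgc
Utp15: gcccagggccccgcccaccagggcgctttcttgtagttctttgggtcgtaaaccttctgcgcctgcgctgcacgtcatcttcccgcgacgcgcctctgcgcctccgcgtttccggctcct
Rrp9: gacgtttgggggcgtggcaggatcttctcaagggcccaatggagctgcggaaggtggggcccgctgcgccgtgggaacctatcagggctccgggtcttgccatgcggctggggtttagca
Nolc1: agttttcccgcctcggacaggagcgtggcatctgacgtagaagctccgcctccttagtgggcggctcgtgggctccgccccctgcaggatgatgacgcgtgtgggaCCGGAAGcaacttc
Nop2: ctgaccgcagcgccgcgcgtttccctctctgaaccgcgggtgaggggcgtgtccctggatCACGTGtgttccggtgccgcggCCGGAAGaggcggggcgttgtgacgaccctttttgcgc
Utp18: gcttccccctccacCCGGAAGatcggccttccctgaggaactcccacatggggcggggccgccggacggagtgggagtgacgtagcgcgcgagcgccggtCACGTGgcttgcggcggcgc

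The windows of Wdr43, Utp15 and Rrp9 held none of the 4 motifs, which says only that these letters are not in them. Nolc1 had CCGGAAG 14 bases before the start. In Nop2 the E-box lay 60 bases and CCGGAAG 38 bases before the start, and in Utp18 they lay 20 and 106 bases before it. A match of letters is not a bound site. For Wdr43 the promoter table and the gene annotation use different starts, so the end of its window lies inside the gene span given below.

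As a group, the 37 genes had their lowest score at ZT4 in young cells and at ZT0 in aged cells. The mean z score, in which each gene is centred and divided by its SD over the 48 arrays before averaging, was -0.33 ± 0.40 at ZT0 and -0.81 ± 0.44 at ZT4 in young mice (SD, n = 4). It was 0.23 ± 0.38 at ZT8, 0.21 ± 0.16 at ZT12, 0.39 ± 0.75 at ZT16 and -0.01 ± 0.33 at ZT20. The low values thus fell in the early light phase. In aged mice it was -0.54 ± 0.33 at ZT0, 0.11 ± 0.39 at ZT4, 0.31 ± 0.28 at ZT8, 0.15 ± 0.77 at ZT12, 0.10 ± 0.39 at ZT16 and 0.21 ± 0.38 at ZT20. The score is a description, with no test.

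The 4 young mice at ZT4 had scores of -0.52, -0.52, -1.45 and -0.76, and the 4 aged mice 0.10, 0.62, -0.33 and 0.04. These ranges did not overlap, and all 4 young mice were the lower. At ZT0 the young mice had 0.20, -0.45, -0.34 and -0.74 and the aged mice -0.95, -0.39, -0.64 and -0.18, and the ages overlapped. Of the 37 genes, 23, 26, 33 and 31 were below their own mean in the 4 young mice at ZT4, and 30, 28, 25 and 21 in the 4 aged mice at ZT0. At ZT16 the young mice split, with 0.41, 1.08 and 0.74 in 3 mice and -0.66 in replicate 1. Replicate 1 of the aged mice at ZT12 stood apart in the same way (-0.95, against 0.30, 0.83 and 0.42).

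**Figure D1:**
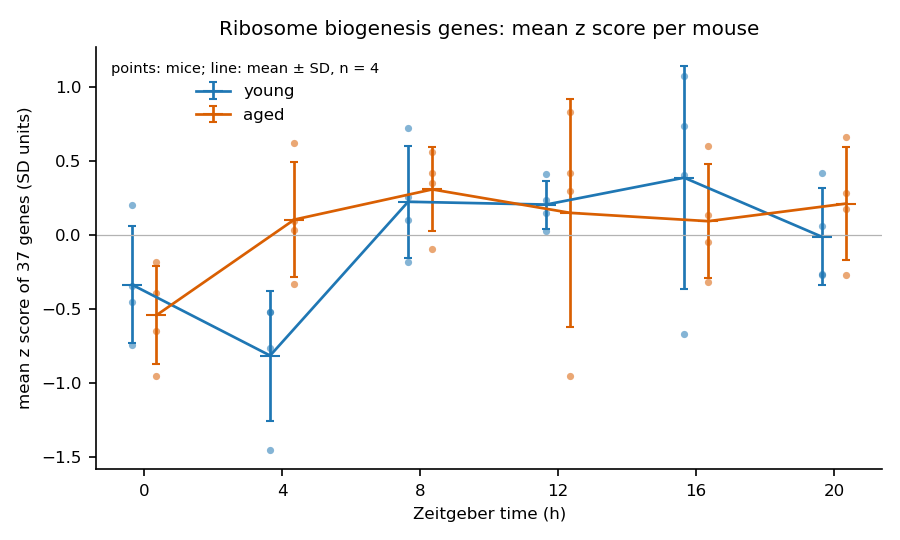
The mean z score of the 37 genes (y axis, in SD units over 48 arrays) is plotted against Zeitgeber time in hours; points are mice and lines join the means ± SD of 4 mice per age and time. The young mice are lowest at ZT4 (mean -0.81) and the aged mice at ZT0 (mean -0.54).

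A 24 h cosine fitted to the score had an amplitude (mean to peak) of 0.50 ± 0.14 in young mice with a peak at ZT14.2 ± 1.03, and 0.25 ± 0.14 in aged mice with a peak at ZT11.5 ± 2.11 (SE, n = 24 mice each). The difference of the amplitudes was not tested. With each array left out in turn the amplitude ranged from 0.44 to 0.60 in young and from 0.18 to 0.38 in aged mice. Each of the 6 role groups had a larger score amplitude in young than in aged mice. In young mice the amplitudes were 0.66 ± 0.21 for the box C/D snoRNP proteins, 0.60 ± 0.19 for the box H/ACA proteins, 0.58 ± 0.18 for the scaffolds and chaperones, 0.58 ± 0.17 for small subunit processing, 0.44 ± 0.14 for RNA polymerase I and its regulators and 0.36 ± 0.16 for large subunit assembly. Their peaks lay between ZT13.63 and ZT14.83. In aged mice the amplitudes ran from 0.05 (box H/ACA) to 0.42 (box C/D), and large subunit assembly, at 0.31 ± 0.16, was close to its young value. Gene by gene, the larger amplitude was the young one for 4 of 10 large subunit genes and 3 of 6 genes of RNA polymerase I. It was so for 8 of 12 small subunit genes, 2 of 3 scaffolds and chaperones, and 3 of 3 in each snoRNP group. The share over all genes was 59.8%.

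Most of the genes were lowest at the same time of day. In young cells the time of the lowest mean was ZT4 for 24 of 37 genes (64.9%, against 16.8% of all 12823 genes) and ZT0 for 9 (24.3%, against 13.3%). The highest mean fell at ZT16 for 19 (51.4%, against 17.1%). In aged cells the lowest mean fell at ZT0 for 23 (62.2%, against 17.6%) and the highest at ZT8 for 14 (37.8%, against 18.9%). The genes share the same arrays, so these counts are not independent observations, and they have no test.

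With each array left out in turn, 21 to 26 genes were lowest at ZT4 in young cells and 18 to 27 at ZT0 in aged cells. The count highest at ZT16 in young cells ranged from 13 to 27, and the count highest at ZT8 in aged cells was 9 without aged ZT12 replicate 1 or aged ZT20 replicate 2. The fitted young peak lay between ZT12 and ZT18 for 32 genes (86.5%, against 24.8% of all genes; 28 to 35 with an array left out). In aged cells 14 peaks lay there (37.8%, against 19.5%).

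**Figure D2:**
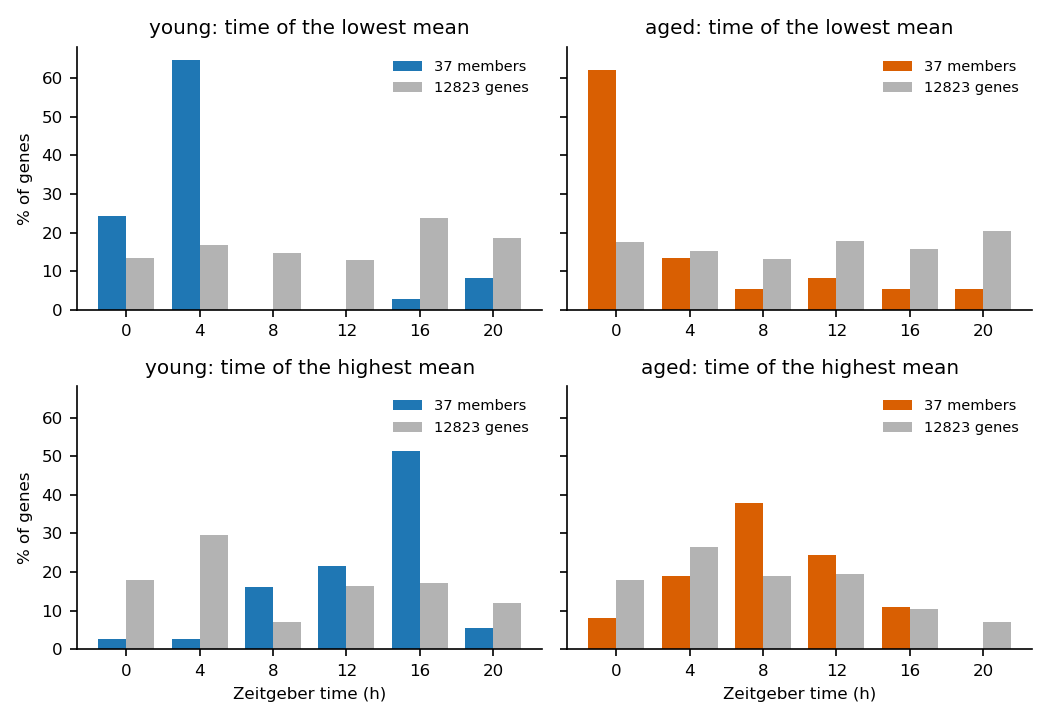
The 4 panels give the percent of genes (y axis) whose lowest or highest group mean fell at each Zeitgeber time in hours (x axis), in young and aged mice; coloured bars are the 37 ribosome biogenesis genes and grey bars all 12823 genes tested. The tallest bars are the lowest mean at ZT4 in young (64.9%) and at ZT0 in aged mice (62.2%).

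Other measures of the arrays also varied over the day, and their part in these courses was not tested beyond the covariate fit given here. The score of basal keratinocyte markers ranged from -0.39 to 0.18 over the young group means (-0.18 at ZT4) and from -0.41 (at ZT0) to 0.56 (at ZT4) in aged mice. At ZT4, where the young and aged ribosome biogenesis scores did not overlap, the basal score did not overlap either (-0.60 to 0.19 in young and 0.27 to 0.92 in aged mice). The T cell score at ZT4 was -0.15 ± 0.47 in young and 1.41 ± 1.29 in aged mice (SD, n = 4), and 3 of 4 T cell genes were higher in aged cells (Cd3e, Cd3g and Thy1). For the suprabasal markers it was lowest at young ZT16 (-0.62) and highest at young ZT12 (0.47), and at aged ZT0 it was 0.46. The bulge marker score was -0.45 at young ZT4 and 0.69 at aged ZT0. In bulk samples fewer cells of a type and less RNA per cell cannot be told apart. With the scores of 4 cell type lists (suprabasal, fibroblast, myeloid and bulge) as covariates, 5 ribosome biogenesis genes were rhythmic in young cells (Nolc1, Ddx21, Wdr43, Utp15 and Rrp9; 9.16% of all genes) and 3 varied over the 6 times (Nolc1, Wdr43 and Rrp9; 14.1% of all genes). In aged cells 0 were rhythmic (1.39% of all genes), and Ncl, Nop14 and Nop16 varied over the 6 times (6.45% of all genes). The basal and T cell scores were not among the covariates, so this fit could not account for them.

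**Figure D3:**
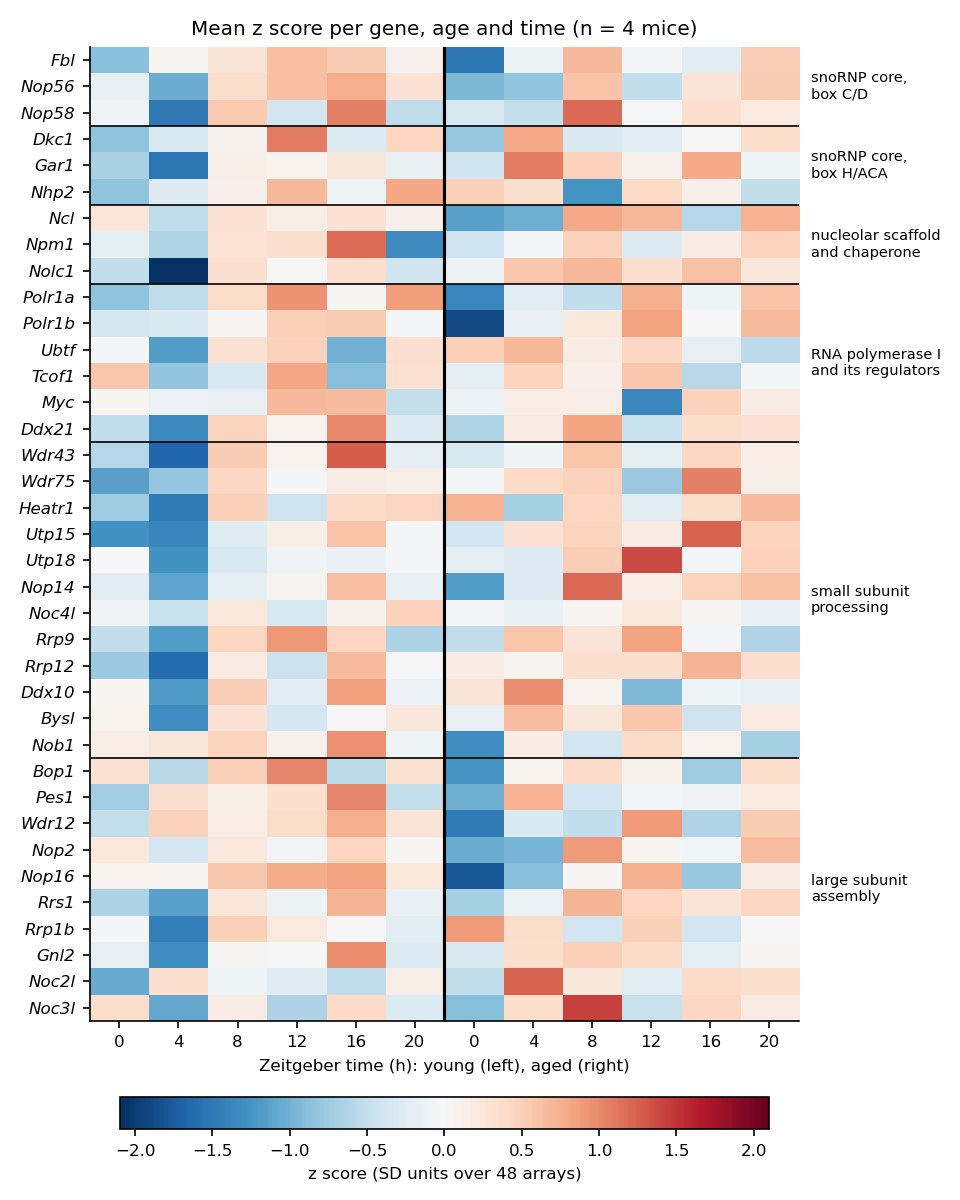
Rows are the 37 genes grouped by role and columns the 6 Zeitgeber times in hours, young on the left and aged on the right; colour is the mean z score of 4 mice, in SD units over 48 arrays. Blue (low) fills most of the young ZT4 column and of the aged ZT0 column, while Pes1, Wdr12, Nob1, Noc2l, Fbl and Nop16 are above 0 at young ZT4.

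Gene by gene, few of the 37 passed a test, at shares close to those of all genes. In young cells 3 were rhythmic with a 24 h cosine (Wdr43, Utp15 and Rrp9; 8.11%, against 6.27% of all genes), and 12 had an unadjusted p under 0.05 (32.4%, against 20.7%). In aged cells none was rhythmic (1.36% of all genes), and 4 had an unadjusted p under 0.05 (limma F test; 10.8%, against 11.4%). With time as a factor, which allows any shape, 7 varied in young cells (18.9%, against 17.5%) and 3 in aged cells (8.11%, against 8.36%). No gene had a rhythm that differed between the ages (0% of all genes; 1 at an unadjusted p under 0.05, 2.7% against 7.66%), and none had a different course with time as a factor (2.59% of all genes; 5 unadjusted, 13.5% against 15.3%). The called shares were thus near the background. Single mice moved these counts. The 3 rhythmic genes became 0 without young ZT16 replicate 3, 1 without young ZT16 replicate 4, 5 without young ZT8 replicate 1, and 6 without young ZT0 replicate 1, young ZT16 replicate 1 or aged ZT12 replicate 1. The 7 that varied in young cells became 3 without young ZT4 replicate 3, and 4 without young ZT0 replicate 4, young ZT4 replicate 4, young ZT8 replicate 1 or 3, young ZT16 replicate 2, 3 or 4, or young ZT20 replicate 2 or 3. The 3 in aged cells became 6 without aged ZT0 replicate 4 or aged ZT12 replicate 1, and 5 without aged ZT8 replicate 4, young ZT4 replicate 1 or young ZT4 replicate 3. P values were adjusted over all 12823 genes by Benjamini-Hochberg, with a threshold of 0.05.

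The median amplitude on the log2 scale was 0.10 in young cells (range 0.03 to 0.37) and 0.09 in aged cells (range 0.01 to 0.32), beside 0.09 and 0.08 for all genes. It was larger in young than in aged cells for 23 genes (62.2%, against 59.8% of all genes). As for the level over the whole day, 2 were higher in aged cells (Nolc1 and Utp15; 5.41%, against 9.89% of all genes) and 1 was lower (Nop16; 2.7%, against 8.73%). Aged minus young differences ranged from -0.19 to 0.24 with a median of 0.04 (-0.002 for all genes). Without young ZT8 replicate 1, 4 were higher (Gar1, Nolc1, Utp15 and Rrp12). The sign was positive for 23 of 37 genes as deposited (62.2%, against 49.3% of all genes) and for 20 with arrays centred on their median (39.8% of all genes).

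**Figure D4:**
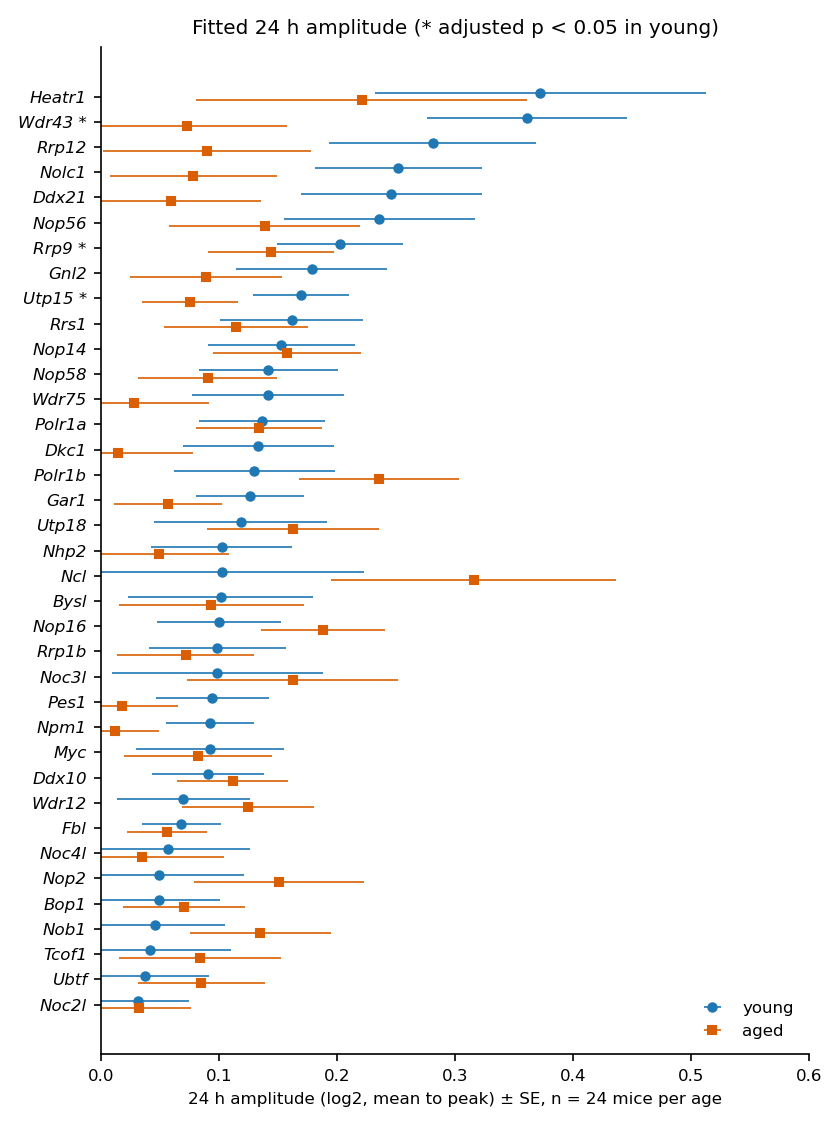
Points give the fitted 24 h amplitude of each gene (x axis, log2 units from mean to peak) with its SE for 24 young (circles) and 24 aged mice (squares); error bars are cut at 0 and an asterisk marks an adjusted p under 0.05 in young. Heatr1 (0.37) and Wdr43 (0.36) have the largest young amplitudes, and Ncl (0.32) the largest aged amplitude.

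Among the regulators and subunits of RNA polymerase I, 1 of 6 genes varied over the young times (Ddx21) and 1 over the aged times (Polr1b). Myc, the transcription factor named above, showed no call. Its young values were 10.74, 10.86, 10.98 and 11.16 at ZT0, 10.81, 10.84, 10.98 and 10.98 at ZT4, 10.74, 10.83, 10.89 and 11.08 at ZT8, 10.97, 11.07, 11.11 and 11.15 at ZT12, 11.02, 11.05, 11.07 and 11.15 at ZT16 and 10.65, 10.80, 10.82 and 11.00 at ZT20. All 4 young mice at ZT16 were above those at ZT4 and ZT20, and overlapped those at the other times. In aged mice the values were 10.88, 10.88, 10.91 and 10.92 at ZT0, 10.91, 10.91, 10.94 and 11.07 at ZT4, 10.92, 10.92, 10.97 and 11.01 at ZT8, 9.69, 10.85, 10.88 and 11.08 at ZT12, 10.90, 10.96, 11.08 and 11.18 at ZT16 and 10.74, 10.94, 11.08 and 11.08 at ZT20. The low aged value at ZT12 is replicate 1. The amplitude of Myc was 0.09 ± 0.06 in young and 0.08 ± 0.06 in aged cells (limma, adjusted p = 0.63 and 0.839), and its aged minus young level was -0.04 (adjusted p = 0.692).

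Ddx21, an RNA helicase of the nucleolus that acts in ribosomal RNA transcription and processing, varied over the young times (limma F test, adjusted p = 0.0427). Young mice had values of 9.58, 9.71, 9.95 and 10.30 at ZT0, 9.20, 9.68, 9.81 and 9.93 at ZT4, 9.82, 10.21, 10.30 and 10.37 at ZT8, 9.94, 9.95, 10.12 and 10.23 at ZT12, 9.92, 10.23, 10.56 and 10.60 at ZT16 and 9.78, 9.89, 10.00 and 10.15 at ZT20. The mice at ZT4 were all below those at ZT12 and overlapped those at ZT16 by 1 mouse. In aged cells the group means lay between 9.86 at ZT0 and 10.28 at ZT8 (adjusted p = 0.408). The second probe set of Ddx21 (mean 9.10) had a young amplitude of 0.11. Its unadjusted p over the young times was 0.293 (limma F test). The aged minus young level of that probe set was 0.24 (limma, unadjusted p = 0.0115), against 0.06 for the one used.

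Polr1b, the second-largest subunit of RNA polymerase I (chromosome 2, 129100970 to 129128060), varied over the aged times (limma F test, adjusted p = 0.00952). Aged mice had values of 5.73, 5.84, 6.12 and 6.43 at ZT0, 6.08, 6.51, 6.53 and 6.82 at ZT4, 6.25, 6.57, 6.71 and 6.84 at ZT8, 6.58, 6.68, 6.88 and 6.89 at ZT12, 6.29, 6.45, 6.49 and 6.90 at ZT16 and 6.58, 6.64, 6.73 and 6.90 at ZT20. All 4 mice at ZT0 were below all mice at ZT12 and ZT20. Young means moved less, from 6.43 at ZT0 to 6.67 at ZT16 (adjusted p = 0.661), and the difference between the courses did not pass (adjusted p = 0.456).

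Polr1a, the catalytic subunit, had its lowest mean at ZT0 and its highest at ZT12 at both ages. The young means were 6.62 ± 0.14 and 6.98 ± 0.11, and the aged means 6.51 ± 0.19 and 6.94 ± 0.10 (SD, n = 4). In young mice the values were 6.47, 6.56, 6.66 and 6.79 at ZT0, 6.24, 6.70, 6.81 and 6.99 at ZT4, 6.84, 6.85, 6.86 and 6.92 at ZT8, 6.88, 6.92, 7.01 and 7.12 at ZT12, 6.69, 6.70, 6.85 and 6.94 at ZT16 and between 6.83 and 7.12 at ZT20. The aged values were 6.30, 6.42, 6.59 and 6.74 at ZT0, 6.65, 6.70, 6.78 and 6.83 at ZT4, 6.44, 6.62, 6.83 and 6.85 at ZT8, 6.86, 6.90, 6.93 and 7.09 at ZT12, 6.69, 6.69, 6.77 and 6.94 at ZT16 and 6.61, 6.98, 7.02 and 7.03 at ZT20. At both ages the mice at ZT0 were all below those at ZT12. Neither course passed (limma F test), with an adjusted p of 0.0681 for the young and 0.0715 for the aged. Ubtf, which opens ribosomal DNA chromatin for the polymerase, and Tcof1, its nucleolar partner, had young amplitudes of 0.04 each and no call.

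Among the box C/D snoRNP proteins, which guide methylation of ribosomal RNA, Nop58 varied over the young times (limma F test, adjusted p = 0.0122). Its young values were 9.59, 9.70, 9.89 and 10.03 at ZT0, 9.13, 9.46, 9.56 and 9.83 at ZT4, 9.85, 9.89, 9.96 and 10.03 at ZT8, 9.62, 9.68, 9.81 and 9.83 at ZT12, 9.75, 10.01, 10.11 and 10.31 at ZT16 and 9.56, 9.68, 9.75 and 9.82 at ZT20. The mice at ZT4 did not overlap those at ZT8 and overlapped those at ZT16 by 1 mouse. The course had 2 high times, ZT8 (mean 9.93) and ZT16 (10.04), and the single cosine did not pass (adjusted p = 0.277). In aged cells the highest mean was at ZT8 (10.07 ± 0.09, against 9.71 ± 0.18 at ZT4, SD, n = 4). The aged course did not pass (limma F test, adjusted p = 0.257).

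Nop56, the partner of Nop58, had young means from 9.09 ± 0.20 at ZT4 to 9.65 ± 0.18 at ZT16 (limma F test, adjusted p = 0.151). Fbl is the methyltransferase of the particle. Young mice had values of 10.63, 10.77, 10.80 and 10.92 at ZT0, 10.81, 10.83, 10.92 and 10.96 at ZT4, 10.81, 10.90, 10.93 and 10.97 at ZT8, 10.81, 10.89, 11.03 and 11.04 at ZT12, 10.81, 10.90, 11.01 and 11.02 at ZT16 and 10.78, 10.87, 10.89 and 10.99 at ZT20, and the times overlapped. For aged mice the values were 10.51, 10.71, 10.79 and 10.82 at ZT0, 10.82, 10.83, 10.88 and 10.92 at ZT4, 10.91, 10.91, 10.92 and 11.05 at ZT8, 10.78, 10.82, 10.94 and 10.94 at ZT12, 10.67, 10.89, 10.89 and 10.93 at ZT16 and 10.84, 10.86, 10.94 and 11.08 at ZT20, and the mice at ZT0 were below those at ZT8 and ZT20. The adjusted p of its course was 0.551 in young and 0.248 in aged cells.

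None of the 3 box H/ACA proteins, which guide pseudouridylation, passed a test. Dkc1, the pseudouridine synthase, had a young mean of 9.32 ± 0.42 at ZT0 and 9.74 ± 0.15 at ZT12, and Gar1 9.39 ± 0.18 at ZT4 and 9.70 ± 0.25 at ZT16 (SD, n = 4). Gar1 was 9.84 ± 0.17 at ZT4 in aged cells. Nhp2, the RNA-binding member, ran otherwise in aged cells, with its lowest mean at ZT8 (10.07 ± 0.11) and its highest at ZT0 (10.44 ± 0.10). The adjusted p of the difference between the courses was 0.326 for Gar1 and 0.243 for Nhp2.

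Of the nucleolar scaffolds and chaperones, Nolc1, which carries snoRNPs (chromosome 19, 46075847 to 46085543), was higher in aged cells and varied over the day in young cells. The young values were 9.50, 9.51, 9.78 and 10.17 at ZT0, 8.92, 9.25, 9.40 and 9.55 at ZT4, 9.85, 9.85, 10.08 and 10.22 at ZT8, 9.71, 9.75, 10.04 and 10.08 at ZT12, 9.47, 10.06, 10.12 and 10.34 at ZT16 and 9.51, 9.70, 9.85 and 10.03 at ZT20. In aged mice the values were 9.80, 9.83, 9.89 and 9.94 at ZT0, 9.84, 9.94, 10.17 and 10.31 at ZT4, 10.06, 10.06, 10.10 and 10.18 at ZT8, 9.56, 9.98, 10.19 and 10.26 at ZT12, 10.03, 10.05, 10.07 and 10.16 at ZT16 and 9.75, 9.83, 10.08 and 10.20 at ZT20. All 4 young mice at ZT4 were below every aged mouse, and 21 of 24 aged mice were above the young median.

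The aged level of Nolc1 was 1.17 times the young level (log2 difference 0.23 ± 0.07, SE; limma, adjusted p = 0.0165), and its young course passed with time as a factor (adjusted p = 0.00574) but not with the cosine (amplitude 0.25 ± 0.07, peak ZT14.29; adjusted p = 0.0549). The difference between the courses did not pass (adjusted p = 0.212). Its other 2 probe sets had smaller level differences, 0.07 and 0.13, and young amplitudes of 0.28 and 0.05.

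Ncl, nucleolin, which binds ribosomal DNA and precursor RNA, varied over the aged times (limma F test, adjusted p = 0.0183). Aged mice had values of 8.21, 8.22, 8.50 and 9.23 at ZT0, 8.20, 8.55, 8.69 and 8.92 at ZT4, 9.35, 9.36, 9.44 and 9.48 at ZT8, 8.30, 9.43, 9.73 and 10.01 at ZT12, 8.65, 8.73, 8.83 and 8.92 at ZT16 and 9.07, 9.23, 9.50 and 9.72 at ZT20. All mice at ZT8 were above all mice at ZT0, ZT4 and ZT16, and ZT16 lay between 2 higher times. The young means lay between 8.81 at ZT4 and 9.19 at ZT8 and ZT16 (adjusted p = 0.807). The difference between the courses did not pass (adjusted p = 0.384).

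Npm1, nucleophosmin, a histone and ribosome chaperone that shuttles out of the nucleolus, had no call. In young mice the values were 11.83, 11.93, 11.95 and 12.02 at ZT0, 11.66, 11.82, 11.98 and 12.04 at ZT4, between 11.97 and 12.01 at ZT8, 11.87, 11.92, 12.08 and 12.11 at ZT12, 11.96, 12.12, 12.15 and 12.17 at ZT16 and 11.46, 11.83, 11.93 and 11.94 at ZT20. All young mice at ZT16 were above those at ZT20. The aged values were 11.82, 11.85, 11.92 and 12.02 at ZT0, 11.91, 11.92, 11.92 and 12.05 at ZT4, 11.98, 11.98, 12.04 and 12.06 at ZT8, 11.88, 11.90, 11.93 and 11.96 at ZT12, 11.78, 11.97, 12.06 and 12.08 at ZT16 and 11.95, 11.99, 12.05 and 12.06 at ZT20, with ZT8 above ZT12 and the other times overlapping both. The young means ran from 11.79 ± 0.23 at ZT20 to 12.10 ± 0.10 at ZT16 (SD, n = 4; limma F test, adjusted p = 0.0864).

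**Figure D5:**
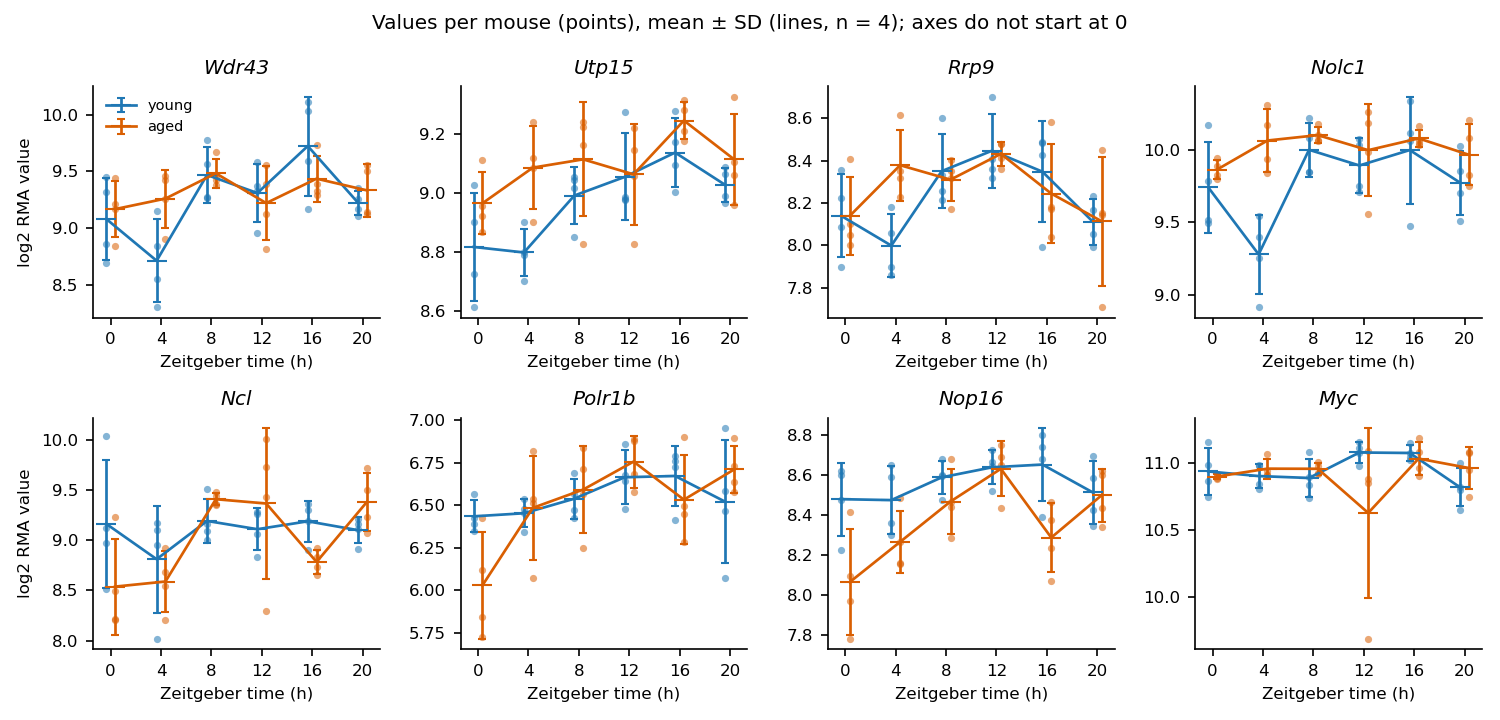
Log2 RMA values (y axes, which do not start at 0) of 8 genes against Zeitgeber time in hours; points are mice and lines join the means ± SD of 4 mice per age and time. Young Wdr43, Utp15, Rrp9 and Nolc1 are lowest at ZT4 (Wdr43 mean 8.71), aged Polr1b and Nop16 are lowest at ZT0 (6.03 and 8.06), and Myc has 1 low aged mouse at ZT12 (9.69).

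The small subunit processing factors held the 3 genes rhythmic in young cells, and 10 of the 12 were lowest at ZT4 there. Wdr43, a subunit of the processome that binds the start of the precursor RNA (chromosome 17, 71616178 to 71659031), had young values of 8.69, 8.86, 9.32 and 9.45 at ZT0, 8.30, 8.55, 8.84 and 9.15 at ZT4, 9.26, 9.27, 9.56 and 9.78 at ZT8, 8.96, 9.32, 9.37 and 9.58 at ZT12, 9.16, 9.59, 10.03 and 10.11 at ZT16 and 9.11, 9.17, 9.26 and 9.35 at ZT20. The mice at ZT4 were all below those at ZT8 and ZT16. For aged mice the values were 8.84, 9.17, 9.21 and 9.44 at ZT0, 8.90, 9.26, 9.42 and 9.46 at ZT4, 9.38, 9.42, 9.46 and 9.67 at ZT8, 8.81, 9.12, 9.38 and 9.56 at ZT12, 9.29, 9.33, 9.39 and 9.73 at ZT16 and 9.12, 9.15, 9.51 and 9.56 at ZT20, and ZT4 and ZT16 overlapped.

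The young amplitude of Wdr43 was 0.36 ± 0.08, with a peak 1.65 times the trough at ZT14.51 ± 0.90 (SE, n = 24; limma F test, adjusted p = 0.0149), and its course also passed with time as a factor (adjusted p = 0.00274). The aged amplitude was 0.07 ± 0.08 (adjusted p = 0.926). Tested as a whole, the rhythm was not called different by age (adjusted p = 0.655). Its second probe set had a young amplitude of 0.21 with a peak at ZT16.3, and an unadjusted limma p of 0.1 (24 mice).

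Utp15, a subunit of the same early processome module (chromosome 13, 98246845 to 98262992), had young values of 8.61, 8.73, 8.90 and 9.03 at ZT0, 8.70, 8.79, 8.80 and 8.90 at ZT4, 8.85, 9.02, 9.05 and 9.05 at ZT8, 8.98, 8.98, 8.99 and 9.28 at ZT12, 9.00, 9.10, 9.17 and 9.28 at ZT16 and 8.97, 8.99, 9.07 and 9.09 at ZT20. From ZT12 to ZT20 every young mouse was above every young mouse at ZT4. In aged mice the values were 8.87, 8.92, 8.96 and 9.11 at ZT0, 8.90, 9.09, 9.12 and 9.24 at ZT4, 8.83, 9.16, 9.23 and 9.24 at ZT8, 8.83, 9.06, 9.15 and 9.22 at ZT12, 9.18, 9.21, 9.28 and 9.32 at ZT16 and 8.96, 9.06, 9.11 and 9.33 at ZT20. Over all times the young values were 8.61 at the lowest, 8.99 at the median and 9.28 at the highest, and the aged values 8.83, 9.12 and 9.33, with 17 of 24 aged mice above the young median.

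The young amplitude of Utp15 was 0.17 ± 0.04 with a peak at ZT14.65 ± 0.92, 1.26 times the trough (SE, n = 24; limma F test, adjusted p = 0.0187). The aged amplitude was 0.08 ± 0.04 (adjusted p = 0.679). The aged level was 1.09 times the young level (log2 difference 0.13 ± 0.04, adjusted p = 0.0225), and with arrays centred on their median it was 0.10 and no longer passed (adjusted p = 0.0741). The other, dimmer probe set of Utp15 had a level difference of 0.47 in the same direction, and its young peak lay at ZT3.31 with an amplitude of 0.11 (unadjusted p = 0.251 by limma).

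Rrp9, a protein of the U3 snoRNP that guides the early cuts (chromosome 9, 106477309 to 106485415), had young values of 7.90, 8.08, 8.22 and 8.36 at ZT0, 7.86, 7.90, 8.06 and 8.18 at ZT4, 8.21, 8.25, 8.33 and 8.60 at ZT8, 8.32, 8.36, 8.41 and 8.70 at ZT12, 7.99, 8.43, 8.49 and 8.49 at ZT16 and 7.99, 8.05, 8.17 and 8.23 at ZT20. The mice at ZT4 did not overlap those at ZT8 and ZT12, and at ZT16 replicate 1 (7.99) was apart from the other 3. The amplitude was 0.20 ± 0.05 with a peak at ZT12.6 ± 1.01, 1.32 times the trough (SE; limma F test, adjusted p = 0.0365). The aged amplitude was 0.14 ± 0.05 (adjusted p = 0.377).

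Heatr1, a large scaffold of the early processome that also supports RNA polymerase I, had the largest young amplitude of the 37 (0.37 ± 0.14, SE), but with a spread between mice that left the cosine short of the threshold (limma F test, adjusted p = 0.208). Its young values were 6.28, 6.95, 7.70 and 7.77 at ZT0, 6.20, 6.28, 7.32 and 7.32 at ZT4, 7.49, 7.64, 8.06 and 8.25 at ZT8, 7.10, 7.21, 7.26 and 7.84 at ZT12, 7.19, 7.84, 7.98 and 8.22 at ZT16 and 7.56, 7.76, 7.84 and 8.17 at ZT20. The mice at ZT4 were below all mice at ZT8 and ZT20, and with time as a factor the course passed (adjusted p = 0.0256). The other probe sets of Heatr1 (means 7.56 and 6.77) had smaller young amplitudes, 0.17 and 0.20. Their unadjusted p over the young times was 0.0185 and 0.00137 (limma F test). Their aged minus young level was 0.21 each (limma, unadjusted p = 0.00406 and 0.0158), against 0.23 for the one used (unadjusted p = 0.105).

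Rrp12, which acts in maturation and export of the small subunit, also varied over the young times (limma F test, adjusted p = 0.0467). Young mice had values of 6.22, 6.43, 6.56 and 7.09 at ZT0, 5.90, 6.24, 6.41 and 6.56 at ZT4, 6.47, 6.93, 6.94 and 7.34 at ZT8, 6.48, 6.52, 6.87 and 6.90 at ZT12, 6.48, 7.07, 7.38 and 7.40 at ZT16 and 6.54, 6.85, 6.94 and 7.04 at ZT20. The times overlapped, with ZT4 (mean 6.28) the lowest and ZT16 (7.08) the highest. The aged level was 0.24 higher on the log2 scale and did not pass (adjusted p = 0.0534).

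The remaining small subunit factors had no call. Wdr75, a further subunit of the early module, was lowest at ZT0 (3.78 ± 0.18) near the dim limit, and Nob1, the endonuclease that makes the last cut of the small subunit RNA, was lowest at ZT20 (7.46 ± 0.20; SD, n = 4). Utp18, Nop14 with its binding partner Noc4l, the helicase Ddx10 and the late factor Bysl were all lowest at ZT4 in young cells. Their means there were 7.59 ± 0.16, 8.43 ± 0.06, 8.67 ± 0.36, 7.36 ± 0.21 and 6.96 ± 0.40 in that order. In aged cells only 4 of the 12 small subunit genes were lowest at ZT0, and Utp18 had its highest mean at ZT12 (8.34 ± 0.20).

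Among the 10 large subunit assembly factors, 9 were lowest at ZT0 in aged cells and 7 were lowest at ZT4 in young cells. Nop16, a nucleolar protein of the early large subunit (chromosome 13, 54584191 to 54590097), was lower in aged cells. Its aged values were 7.78, 7.97, 8.09 and 8.41 at ZT0, 8.15, 8.16, 8.26 and 8.48 at ZT4, 8.29, 8.44, 8.46 and 8.68 at ZT8, 8.43, 8.65, 8.69 and 8.75 at ZT12, 8.07, 8.23, 8.38 and 8.46 at ZT16 and 8.34, 8.44, 8.60 and 8.62 at ZT20. The mice at ZT0 were all below those at ZT12.

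The young values of Nop16 were 8.22, 8.47, 8.60 and 8.62 at ZT0, 8.30, 8.36, 8.59 and 8.65 at ZT4, 8.48, 8.60, 8.60 and 8.68 at ZT8, 8.52, 8.64, 8.66 and 8.72 at ZT12, 8.39, 8.68, 8.74 and 8.80 at ZT16 and 8.34, 8.42, 8.59 and 8.70 at ZT20. The young times overlapped, and 19 of 24 aged mice were below the young median. The young level was 1.14 times the aged level (log2 difference of aged minus young -0.19 ± 0.05, SE; limma, adjusted p = 0.00794). The aged course varied (adjusted p = 0.00881), and the young course did not pass (adjusted p = 0.648). The difference between the courses did not pass either (adjusted p = 0.396). The second probe set of Nop16 differed by -0.14 in level. That probe set was dimmer (mean 5.73), and its course had a low p at both ages. The unadjusted p over the 6 times was 0.00168 in young and 0.00269 in aged mice (limma F test).

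The other 9 large subunit genes had no call. Bop1, Pes1 and Wdr12, which form the PeBoW complex, did not share their lowest time in young cells (ZT4 for Bop1 and ZT0 for Pes1 and Wdr12), and all 3 were lowest at ZT0 in aged cells, with means of 8.53 ± 0.26, 9.30 ± 0.05 and 6.75 ± 0.21 (SD, n = 4). Wdr12 came closest to a call in aged cells (limma F test, adjusted p = 0.0503), followed by Noc3l (0.0534). The aged mean of Noc3l was lowest at ZT0 (6.97 ± 0.25) and highest at ZT8 (7.72 ± 0.32). The other probe set of Noc3l (mean 7.03) had its lower p in young cells instead. With time as a factor its unadjusted p was 0.00116 in young and 0.504 in aged cells (limma F test). For the probe set used, that p was 0.0726 and 0.00484. In young cells Rrs1, Rrp1b, the GTPase Gnl2, Noc3l, the RNA methyltransferase Nop2 and Bop1 were lowest at ZT4, as Nop16 was. Rrp1b was the 1 large subunit gene not lowest at ZT0 in aged cells (ZT8, 6.97 ± 0.06). Noc2l, the partner of Noc3l, had young and aged amplitudes of 0.03. Its other probe set (mean 7.46) had amplitudes of 0.21 in young and 0.28 in aged cells (limma F test, unadjusted p = 0.258 and 0.104). With time as a factor the unadjusted p of that probe set was 0.0415 and 0.0137 (limma F test).

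A further list of 92 ribosome biogenesis factors was read beside the 37 genes, and 84 of them were tested. Of the 84, 1 was rhythmic in young cells (Nol8, amplitude 0.26 ± 0.06, adjusted p = 0.0187) and 1 in aged cells (Riok2, a kinase of the late small subunit, 0.35 ± 0.08, adjusted p = 0.032; limma F test). The rhythmic shares over all genes were 6.27% in young and 1.36% in aged cells. In level 14 were higher and 3 lower in aged cells, beside 9.89% and 8.73% of all genes. With arrays centred on their median 11 were higher and 4 lower, beside 956 and 1454 of the 12823 genes. Sdad1 was 1.29 times (log2 difference 0.37, adjusted p = 4.83e-05), Nop9 1.20 times (0.26, adjusted p = 3.96e-04) and Ltv1 1.24 times the young level (0.31, adjusted p = 8.77e-04). Imp3 (-0.22), Polr1d (-0.20) and Nop10 (-0.19) were the 3 lower. Over the young times 7 varied, over the aged times 1, and for 1 the course differed (Ddx31, adjusted p = 0.0193). Of all genes 17.5%, 8.36% and 2.59% passed these tests. The lowest young mean fell at ZT4 for 37 (44%, against 16.8% of all genes) and the lowest aged mean at ZT0 for 43 (51.2%, against 17.6%).

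The ribosomal proteins are the parts that these factors assemble with the RNA. Of 78 cytosolic ribosomal protein genes 66 were tested, and 0 were called in either cosine test or in level, with a median young amplitude of 0.03; 1 varied over the aged times. These genes have near-identical copies elsewhere in the genome, which probe sets may not separate. Among 11 tested genes of RNA polymerase III and its regulators, Maf1, the repressor of that polymerase, was lower in aged cells (young 1.28 times aged, log2 difference -0.35, adjusted p = 5.16e-05; limma), and Maf1 and Polr3k varied over the young times. Among 9 tested partners and antagonists of Myc, Mycl (-0.35, adjusted p = 0.00111) and Mxd1 (-0.26, adjusted p = 0.0324) were lower and Mnt higher (0.17, adjusted p = 0.0154) in aged cells. Mxd4, an antagonist, was rhythmic in young cells with a peak at ZT1 (0.24 ± 0.06; limma F test, adjusted p = 0.0171). Over all genes the shares called were 6.27% (young cosine), 1.36% (aged cosine), 9.89% (higher in aged) and 8.73% (lower in aged). They were 17.5% for the young course and 8.36% for the aged course.

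S phase genes mark DNA replication. In young cells 18 of 20 were highest at ZT12 (90%), against 8 of the 37 ribosome biogenesis genes (21.6%) and 16.3% of all genes. The mean S phase score of young mice was 1.03 at ZT12 and -0.51 at ZT16, where the ribosome biogenesis score was 0.39. In aged mice the S phase score was 0.96 at ZT12 and 0.61 at ZT16, where the ribosome biogenesis score was 0.10. The low time was shared there, with 15 of 20 S phase genes (75%) and 62.2% of the ribosome biogenesis genes lowest at ZT0. Of all genes 17.6% were lowest then. A 24 h rhythm passed for 9 S phase genes in the young and for 14 in the aged, beside 6.27% and 1.36% of all genes. The difference in timing between the lists is a description of these arrays and was not tested.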

How the data were processed

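RNA of EpSCs was extracted with TRizol, amplified from 25 ng in 17 cycles (WTA2) and 8 µg of cDNA was labelled with biotin for Affymetrix arrays, per the labels' protocols. The authors deposited log2 values per probe set, made with RMA per the submitters' processing notes, and these were used without further scaling. Whether both ages were normalised jointly, which version of RMA was used and when mice were harvested or arrays hybridised is not given in the sources used here.

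Of 45141 probe sets, 28898 have exactly 1 gene symbol in the probe table, 551 have several and 15692 are not listed in it. The brightest probe set represented each of 17097 genes, and genes in the lowest 25% of means were left out, which leaves 12823. Of the 37 genes, 23 have several probe sets and 14 have 1.

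The fits used lmFit and eBayes of limma 3.58.1 (R 4.3.3) on all 48 arrays. The main model held a mean, a cosine and a sine of 24 h for each age, and a second model held a mean per age and time. Benjamini-Hochberg adjustment ran over all genes tested, with a threshold of 0.05. The scripts were tested on simulated data with known changes. Every listed gene is named by role, and values per mouse are given at the age that passed a time test, at both ages for level calls, and for Myc, Npm1, Fbl and Polr1a (1 group each of Npm1 and Polr1a as a range). Of the other lists up to 3 genes with the smallest p per comparison are named. The genes and lists were chosen with earlier results of these data known.

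The mean correlation of residuals was -0.00074 between mice of 1 replicate number and 0.00091 between mice of different numbers. This mean showed no pairing by number, but correlations of opposite sign cancel in it (the lowest of 1 number was -0.461). The alternatives were other dim filters, all probe sets averaged, centred arrays, cyclic loess, array weights, eBayes with trend, a replicate block, cell mixture covariates, each age alone and each array left out. Removal of the 4 arrays of lowest weight was chosen after seeing the data, as was the search of promoters over 300 bases.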

Additional observations from a re-analysis of the deposited data

Results flagged for a closer look

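A value was picked out where 1 of 4 mice of a group lay far from the other 3, by Dixon's test at its 95% level. Over 16 measures (15 genes and the mean z score) in the 12 groups, 9 of 192 tests did so, beside the 1 in 20 that chance gives. In all 9 the mouse was replicate 1. Among all 37 genes 37 of 444 tests did so (8.33%), 20 of them in replicate 1 (54.1%), and among all 12823 genes 5.83% of tests, 31% of them in replicate 1. The reason was not tested.

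At aged ZT12, replicate 1 had 9.69 for Myc (10.85 to 11.08 in the others) and 6.55 for Rrp12 (7.07 to 7.16). This array also had the lowest weight of the 48 (0.247). At young ZT16, replicate 1 had 7.99 for Rrp9 (8.43 to 8.49) and 6.41 for Polr1b (6.73 to 6.79). At young ZT12, replicate 1 had 9.28 for Utp15 (8.98 to 8.99). In aged mice replicate 1 had 12.05 for Npm1 at ZT4 (11.91 to 11.92), 11.05 for Fbl at ZT8 (10.91 to 10.92), 10.67 for Fbl at ZT16 (10.89 to 10.93) and 6.61 for Polr1a at ZT20 (6.98 to 7.03).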

How the results depend on the processing

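The direction of level was kept by Nolc1, Utp15 and Nop16 under all 58 alternatives that give it, and the call by Nop16 in all 58, by Nolc1 in 57 and by Utp15 in 57. The young course of Wdr43 and the aged courses of Ncl and Nop16 passed in all 59. Rrp9 kept its cosine call in 48, Ddx21 its course call in 38, Utp15 in 36 and Rrp12 in 27.

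The count rhythmic in young cells was 3, and was 1 with all probe sets averaged, 11 with array weights, 5 with cell mixture covariates, 1 without the 4 arrays of lowest weight and 1 with each age alone. With an array left out it ranged from 0 (without young ZT16 replicate 3) to 6. In aged cells it was 1 with all probe sets averaged, 4 with array weights, 2 without the 4 arrays and 0 to 1 with an array left out (1 without aged ZT12 replicate 1). The count varying over the young times was 7, and was 4 with centred arrays, 18 with array weights, 3 with cell mixture covariates, 4 with each age alone and 3 to 10 with an array left out (3 without young ZT4 replicate 3). In aged cells it was 5 with the lower 50% of genes left out, 5 with all probe sets averaged, 6 with centred arrays, 13 with array weights, 9 without the 4 arrays and 2 to 6 with an array left out. The count higher in aged cells was 1 with centred arrays, 4 with array weights and 2 to 4 with an array left out. A course that differed between the ages was found for 8 genes with array weights and 1 without the 4 arrays. Array weights also raised the share of all genes called, to 18.1% and 4.69% for the cosines, 37.9% and 28.1% for the courses, 12.4% for higher level and 12.3% for the course difference. Without the 4 arrays of lowest weight the share of all genes was 4.54% in young and 3.42% in aged cells for the cosines. For the courses it was 16% and 16.5%, and for the course difference 4.21%. With all arrays these shares were 6.27%, 1.36%, 17.5%, 8.36% and 2.59% in the same order. The cause of the other changes was not tested.

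With the replicate block, which the pairing check did not call for, 4 genes varied over the young times (Nop58, Nolc1, Wdr43 and Heatr1). Over all genes, 1268 were higher and 1119 lower in aged cells, and 956 and 1454 with arrays centred on their median.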

Other observations

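Of the 66 cytosolic ribosomal protein genes tested, 48 had their lowest aged mean at ZT8, against 13% of all genes. At that time 14 of the 37 ribosome biogenesis genes had their highest aged mean. In young cells 45 of the 66 were highest at ZT12, against 16.3% of all genes. The median amplitude of the 66 genes was small, 0.03 in young and 0.02 in aged cells, and they were not tested as a group.

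Promoters searched over the whole 300 bases, with 50 after the start, held CACGTG in 4 of 29 genes (13.8%; Nop2, Pes1, Utp18 and Wdr43), against 9.93% of the genes tested. CCGGAAG was in 9 (31%), against 16.6%.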
